A study of Homo sapiens with 2 samples.

Results

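Promoter occupancy by NRF-1 was examined at the 10 nuclear genes COX10, COX11, COX14, COX15, COX16, COX17, COX18, COX20, SCO1 and SCO2, which encode assembly factors of cytochrome c oxidase. The genes were taken as a fixed list out of 19794 protein-coding genes, chosen with earlier results of these data known. U251 is an established human glioblastoma line, and it was transfected with a control siRNA (siControl) or an siRNA against AATF (siAATF), with no other agent named in the labels. NRF-1 ChIP-seq was carried out by ChIPmentation, with 1 peak list per condition analysed here. There were therefore no replicates, no test between conditions and no spread between samples, and the number of reads behind each list was unknown. AATF itself is not measured by peak lists. Peaks numbered 18014 in siControl and 18454 in siAATF.

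Cytochrome c oxidase, complex IV of the respiratory chain, passes electrons from cytochrome c to oxygen. Its catalytic core subunits COX1 and COX2 are encoded by mitochondrial DNA, and they need haem a and copper, which dedicated nuclear-encoded proteins make and insert. The transcription factor NRF-1 binds as a homodimer to a GC-rich palindrome in the promoters of many nuclear genes whose products work in mitochondria. AATF is a transcriptional cofactor that the study examined as a partner of NRF-1. Loss of several of these assembly factors causes human cytochrome c oxidase deficiency.

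Every one of the 10 genes had exactly 1 NRF-1 peak at its promoter in siControl, and every one had exactly 1 in siAATF. Over all coding genes, the share with at least 1 promoter peak was 61.1% in siControl and 60.7% in siAATF. Exactly 1 was found at 10950 and 10842 of the 19794 genes, respectively. A promoter was taken as the region up to 1 kb from any coding transcript start. At all 10 genes the peak of one list overlapped the peak of the other, which was so for 58.6% of all coding genes and for 96% of those with a promoter peak in siControl. Overlap at the 10 genes was thus near the background of genes with a promoter peak. The shared length ran from 82.5% of the siControl peak at COX16 to 100% of it at COX10, COX11, COX17, COX18, SCO1 and SCO2. As a share of the siAATF peak it ran from 69.1% at COX11 to 99.3% at COX14. The strength of the peaks varied widely among the genes.

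The sequence under the peaks differed among the genes. The NRF-1 core was searched as GCGCA followed directly by its reverse complement, TGCGC, which reads the same on both strands. An exact core lay under the peak of COX17, COX18 and SCO2, and each of these 3 also held a further core with 1 mismatch close by. The stretches of COX17 and COX18 that hold both cores are shown because they carry this difference, each on the strand of its gene, with both cores in capitals and 25 bases on either side, on hg19. The COX17 stretch lay at chr3:119396281-119396394 and the COX18 stretch at chr4:73935417-73935505, both on the minus strand.
COX17: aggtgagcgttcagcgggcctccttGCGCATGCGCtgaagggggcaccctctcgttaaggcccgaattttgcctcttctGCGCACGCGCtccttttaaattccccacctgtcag
COX18: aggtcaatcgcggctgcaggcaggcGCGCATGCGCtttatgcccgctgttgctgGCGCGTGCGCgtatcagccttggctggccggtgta

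The further core of COX17 carried T6C, with the base of the core first and positions counted from 1 at its 5′ end on the strand of the gene. That of COX18 carried A5G, and read on its other strand it was GCGCACGCGC, the same word as in COX17. The centres of the paired cores were 54 bp apart at COX17 and 29 bp apart at COX18. In siControl, an exact core with a further core was found in 1.52% of all coding genes with a promoter peak, 184 genes in number. In 173 of them the cores did not overlap, and the nearest such pair was a median of 72 bp apart with quartiles of 43 and 148 bp.

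The cores of COX17 and COX18 began upstream of the canonical start of their gene, the transcript start that the annotation marks as representative. With positions counted from that start and negative upstream, the exact core began at −116 bp at COX17 and −47 bp at COX18. The further core began at −62 and −18 bp, respectively. Over 2928 coding genes with a core of up to 1 mismatch in the siControl peak, the best core began at a median of −60 bp, and at 44.9% of them it began within the 120 bp before the start. Both COX17 cores lay outside coding transcripts. The exact COX18 core also lay outside them, and its further core lay in the untranslated first exon of a COX18 transcript that starts 25 bp upstream of the canonical one.

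A core of up to 1 mismatch was present under the peak of 3 of the 10 genes in each list, against 24.2% (siControl) and 24.4% (siAATF) of genes with a promoter peak, so this count was near the background. For the exact core the count was again 3, against 3.95%. In a fixed stretch of 300 bp around the canonical start, from 250 bp before it, the core was present at the same 3 genes. It was present at 10.6% of 19515 coding genes, counted with or without a peak. Under the other 7 peaks the closest word had 2 mismatches at COX11, COX15 and COX20 and 3 at COX10, COX14, COX16 and SCO1. The stretch had a median GC content of 65% over the 10 genes, from 48.3% at COX16 to 71.3% at SCO2, beside a median of 63.7% over all genes.

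**Figure D1:**
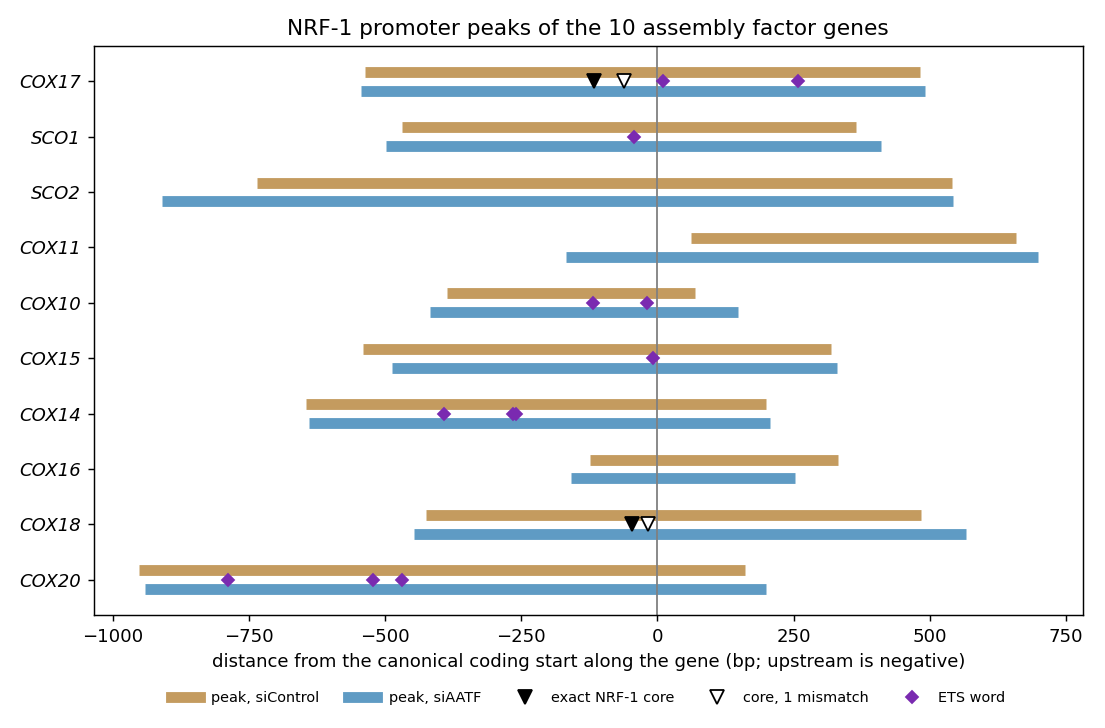
Extent of the promoter peak of each gene in siControl (brown bars) and siAATF (blue bars), as distance in bp along the gene from its canonical coding start, with NRF-1 cores (triangles, filled where exact) and CCGGAAG, a binding word of ETS transcription factors (diamonds), under the siControl peak. The paired cores of COX17 and COX18 lie just upstream of the start, those of SCO2 are not drawn, and only the COX11 peak of siControl does not reach the start.

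Among the copper factors, COX17 is the chaperone that hands copper to the others in the intermembrane space. Its peak lay on chromosome 3 at 119395771 to 119396789 in siControl, with a fold enrichment over the local background of 8.48 and a −log10 q of 68.4. In siAATF it lay at 119395762 to 119396797, enriched 7.90-fold, with a −log10 q of 63.9. Because fold enrichment is relative to the background of one library, peaks were compared by their place within a list, written as a percentile rank that runs from 0 (weakest) to 100 (strongest). Ranks were taken by fold enrichment unless −log10 q is named. COX17 ranked 86.1 in siControl and 84.7 in siAATF. The peak was centred at −27 bp from the start in siControl and at −26.5 bp in siAATF, so neither its place nor its order changed by much.

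SCO1 and SCO2 are related proteins that pass copper on to the CuA site of COX2. The SCO1 peak lay on chromosome 17 at 10600486 to 10601319 in siControl, with an enrichment of 7.34-fold, a −log10 q of 17.1 and a rank of 71.0. In siAATF it lay at 10600439 to 10601349, enriched 6.55-fold, with a −log10 q of 13.9 and a rank of 65.4. This peak also covered the start of ADPRM, a coding gene on the opposite strand that begins 61 bp from the SCO1 start, so it cannot be assigned to one of the genes.

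The SCO2 peak on chromosome 22 was the widest of the set. It spanned 1277 bp in siControl, at 50963486 to 50964762, enriched 6.32-fold, with a −log10 q of 71.0. It spanned 1454 bp in siAATF, at 50963484 to 50964937, enriched 5.65-fold, with a −log10 q of 56.1. The measures placed it differently within a list. By fold enrichment SCO2 ranked 57.4 in siControl and 51.0 in siAATF, whereas by −log10 q it ranked 93.1 and 89.9. The canonical SCO2 start lay 154 bp beyond the end of TYMP, the thymidine phosphorylase gene on the same strand, and the peak ran over that end. In siAATF the wider peak also covered 1 transcript start of TYMP.

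COX11, which delivers copper to the CuB site of COX1, had the largest fall in rank of the 10. Its siControl peak lay on chromosome 17 at 53045356 to 53045953, inside the gene, with a fold enrichment of 7.96, a −log10 q of 15.8 and a rank of 79.6. It ended 62 bp short of the canonical start. In siAATF the peak was 268 bp wider, at 53045317 to 53046182, with a fold enrichment of 6.26, a −log10 q of 10.7 and a rank of 60.9. The wider peak covered the canonical start and also that of STXBP4, a syntaxin binding protein gene on the opposite strand that begins 73 bp away. Of the 10 genes, 9 had the canonical start inside the peak in siControl and 10 in siAATF, against 83.7% and 84.8% of all coding genes with a peak and a canonical coding start.

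The haem a factors differed widely from each other. COX10 farnesylates haem b to haem o, and its peak on chromosome 17 was the weakest of the set. It lay at 13972435 to 13972890 in siControl, with a fold enrichment of 5.36, a −log10 q of 5.30 and a rank of 43.0. In siAATF it lay at 13972404 to 13972969, with a fold enrichment of 5.16, a −log10 q of 5.24 and a rank of 42.9. A long non-coding RNA gene on the opposite strand, COX10-DT, begins 9 bp from the COX10 start under the same peak. COX15, which oxidises haem o to haem a, had the highest fold enrichment of the 10 in both lists, 9.64 in siControl and 9.59 in siAATF. By fold enrichment it stood at place 681 of the siControl list and place 305 of the siAATF list. By −log10 q, which was 57.0 and 56.5, it stood at places 2178 and 1836. The COX15 peak on chromosome 10, at 101491566 to 101492425 in siControl, covered the start of CUTC as well, a coding gene on the opposite strand that begins 107 bp away. It also covered that of ENSG00000285932, a coding gene model on the same strand that overlaps COX15.

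The remaining 4 genes act on the mitochondrially made subunits. COX14 acts early on newly made COX1, and its peak on chromosome 12 was nearly identical in extent, at 50505373 to 50506219 in siControl and 50505380 to 50506225 in siAATF. Its fold enrichment was 8.82 and 8.62, its −log10 q was 40.8 and 40.4, and its rank was 89.7 and 92.7, respectively. Starts of ENSG00000272368, a long non-coding RNA gene on the same strand, lay under the peak in both lists, the nearest 18 bp from the COX14 start.

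COX18 inserts the C-terminal part of COX2 across the inner membrane. Its peak on chromosome 4 lay at 73934950 to 73935858 in siControl, with a fold enrichment of 9.50 and a rank of 95.3. It had the highest −log10 q of the set in that list, 72.1. In siAATF it lay at 73934867 to 73935880, with a fold enrichment of 8.40, a −log10 q of 61.0 and a rank of 90.4. COX17 then had the highest −log10 q of the set.

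COX20, a chaperone of newly made COX2, had its peak on chromosome 1, mostly upstream of the start. It lay at 244998008 to 244999121 in siControl and at 244998019 to 244999160 in siAATF, centred at −395.5 bp and −370.5 bp from the start. Its rank was 67.6 in siControl and 67.3 in siAATF, with fold enrichments of 7.07 and 6.67 and a −log10 q of 29.4 and 31.2. A long non-coding RNA gene on the opposite strand, ENSG00000287601, begins 647 bp from the COX20 start under the same peak in both lists.

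COX16, which acts in the assembly of COX2, had the largest rise in rank. Its peak on chromosome 14 lay at 70826068 to 70826523 in siControl, with a fold enrichment of 5.75, a −log10 q of 6.02 and a rank of 49.1. In siAATF it was shorter by 45 bp, at 70826148 to 70826558, with a fold enrichment of 6.56, a −log10 q of 7.71 and a rank of 65.7. Fold enrichment was higher in siAATF at COX16 and lower at the other 9 genes, against 69.3% of coding genes with a lower value. A further coding start of COX16, 57301 bp upstream within the span of the readthrough gene SYNJ2BP-COX16, had no peak within 1 kb in either list.

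**Figure D2:**
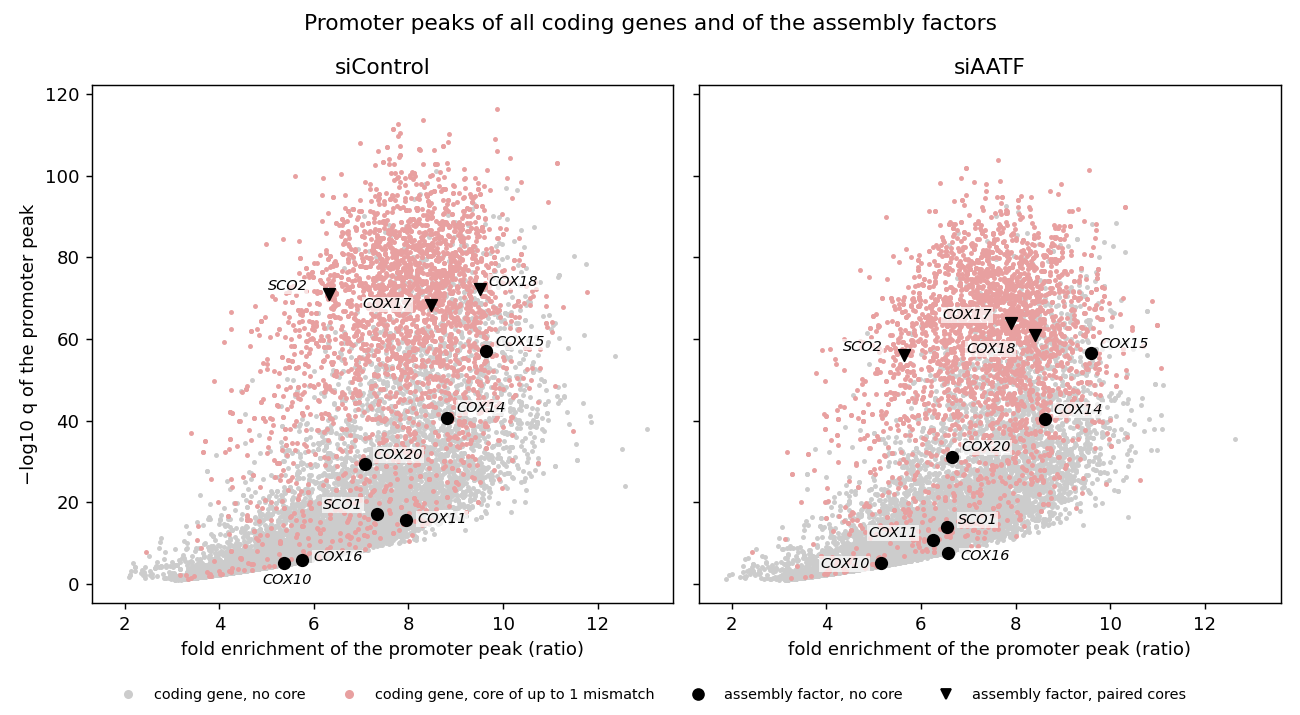
Fold enrichment (x axis, ratio) against −log10 q (y axis) of the promoter peak of every coding gene that had one, in siControl (left) and siAATF (right), with the 10 assembly factors in black. COX17, COX18 and SCO2 (triangles) lie among the genes with a core, at a −log10 q of 68.4, 72.1 and 71.0 in siControl, while COX10 and COX16 lie near the lower end.

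The 3 genes with paired cores had the highest −log10 q of the set in siControl. Chosen after these values had been seen, the grouping by core is given as a description. In siControl their −log10 q ran from 68.4 to 72.1, and that of the 7 other genes ran from 5.30 at COX10 to 57.0 at COX15. Over all coding genes in siControl, peaks with no core had a median −log10 q of 12.3. Peaks with a core of up to 1 mismatch, but no exact core with a further one, had a median of 65.3 at 2749 genes. Their quartiles were 47.3 and 77.6, and COX17, COX18 and SCO2 fell between them. Peaks with an exact core and a further core had a median of 77.2. COX17, COX18 and SCO2 thus lay in the lower part of their own class, with 25.5%, 34.2% and 31.5% of its genes below them. Among genes with no core, COX15 stood high, with 95.4% below it, followed by COX14 with 88.7% and COX20 with 80.1%. In siAATF COX15, with a −log10 q of 56.5, came above SCO2 with 56.1, so the groups overlapped there. By fold enrichment the groups overlapped in siControl as well, with SCO2 at 6.32 and COX15, which had no core of up to 1 mismatch, at 9.64. The paper describes its promoter primers for selected genes, COX15 among them, as covering a region with an NRF-1 motif.

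A word for another factor was searched for as well, chosen with the values above known. CCGGAAG is a binding word of ETS proteins such as NRF-2 (GABP), a further regulator of cytochrome c oxidase genes that is unrelated in sequence to NRF-1. Searched on both strands, it was present under the siControl peak of COX10, COX14, COX15, COX17, COX20 and SCO1, 6 of the 10 genes, against 29.2% of genes with a promoter peak. The same 6 genes held it under the siAATF peak. In the fixed stretch of 300 bp it was present at COX10, COX15, COX17 and SCO1, against 14.1% of coding genes, counted with or without a peak. A match is only a word in the sequence, and binding of ETS proteins was not measured. Words beginning within 300 bp of the canonical start are shown for 4 genes, since their peaks had no NRF-1 core to show. The words are in capitals on the strand of the gene, with 25 bases on either side. COX20 had no NRF-1 core either, but its words began farther off, at −788, −523 and −468 bp, and are not shown. The stretches shown lay at chr17:13972677-13972833 for COX10 and chr12:50505728-50505791 for COX14 on the plus strand, and at chr10:101491861-101491917 for COX15 and chr17:10600862-10600918 for SCO1 on the minus strand.
COX10: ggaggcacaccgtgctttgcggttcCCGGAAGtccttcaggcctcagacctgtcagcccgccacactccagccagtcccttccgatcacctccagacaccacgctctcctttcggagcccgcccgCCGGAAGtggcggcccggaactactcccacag
COX14: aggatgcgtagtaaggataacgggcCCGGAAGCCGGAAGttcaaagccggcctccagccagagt
COX15: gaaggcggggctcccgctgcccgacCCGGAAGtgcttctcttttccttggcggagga
SCO1: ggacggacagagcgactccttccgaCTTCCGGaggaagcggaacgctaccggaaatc

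In COX14 the words followed each other with no base between them, and in COX10 they were 93 bases apart. The COX15 word began at −8 bp from the canonical start. The SCO1 word, at −43 bp, stood on the opposite strand. COX11 and COX16 had neither the ETS word nor an NRF-1 core under their peaks.

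Whether loss of AATF alters NRF-1 occupancy of genes for oxidative phosphorylation was a question of the study. For the assembly factors the conditions were compared by the change in rank, siAATF minus siControl. The change was −18.7 points for COX11 and 16.6 points for COX16. For the other 8 genes it lay between −6.39 points at SCO2 and 2.96 points at COX14. COX18 changed by −4.86, SCO1 by −5.63, COX17 by −1.49, COX20 by −0.366, COX10 by −0.164 and COX15 by 2.13 points. Ranks thus moved by more than 10 points at 2 of the 10 genes, against 26.1% of coding genes with a peak in both lists, and by more than 20 points at 0 of them, against 6.63%.

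**Figure D3:**
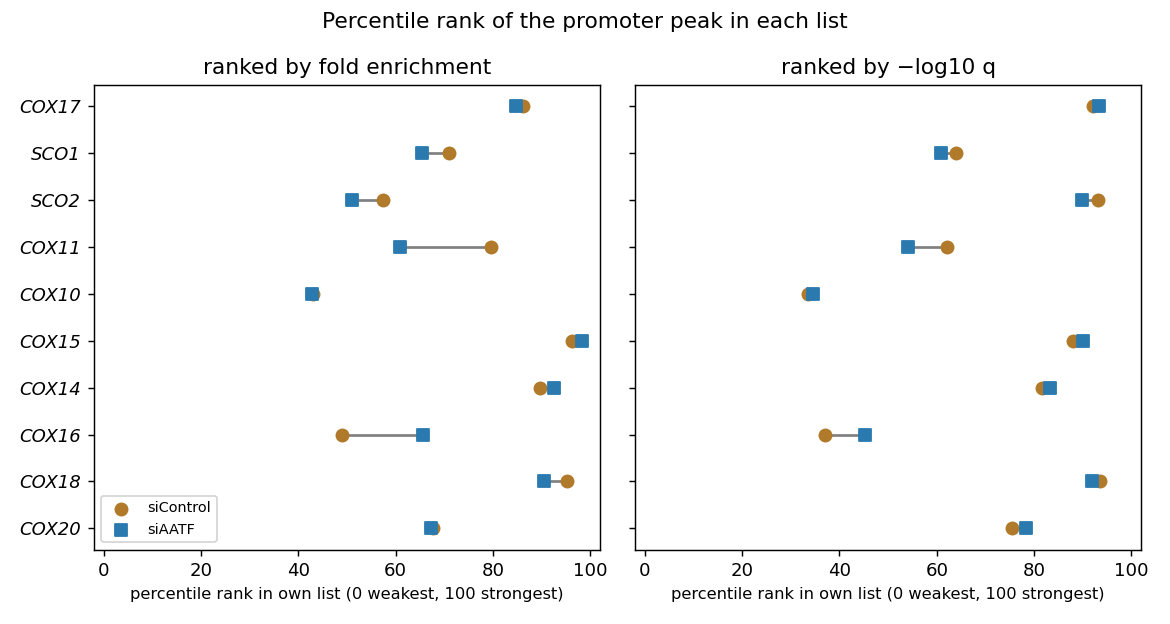
Percentile rank of the promoter peak in its own list (x axis, 0 to 100) for each of the 10 genes in siControl (circles) and siAATF (squares), ranked by fold enrichment (left) and by −log10 q (right). COX11 and COX16 move most and in opposite directions under both rankings, and SCO2 sits at 57.4 by fold enrichment but at 93.1 by −log10 q in siControl.

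The direction was mixed. The rank was lower in siAATF for 7 of the 10 genes, against 48.8% of coding genes, and the median change was −0.925 points beside 0.185 points over all coding genes. Ranked by −log10 q instead, 4 genes were lower, against 44.4%, and the median change was 1.09 points, so the direction of the median depended on the ranking. COX11, SCO1, COX18 and SCO2 were lower and COX14, COX15 and COX16 were higher under both rankings, while COX10, COX17 and COX20 changed sign. The −log10 q itself was lower in siAATF for 8 of the 10 genes, all but COX16 and COX20, against 65.7% of coding genes. This value also moves with the number of reads in a library, and the part of depth was not tested. The peak was wider in siAATF for 7 of the 10 genes, against 56.9%, with COX11 widening most and COX14, COX15 and COX16 narrowing by 1, 42 and 45 bp.

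**Figure D4:**
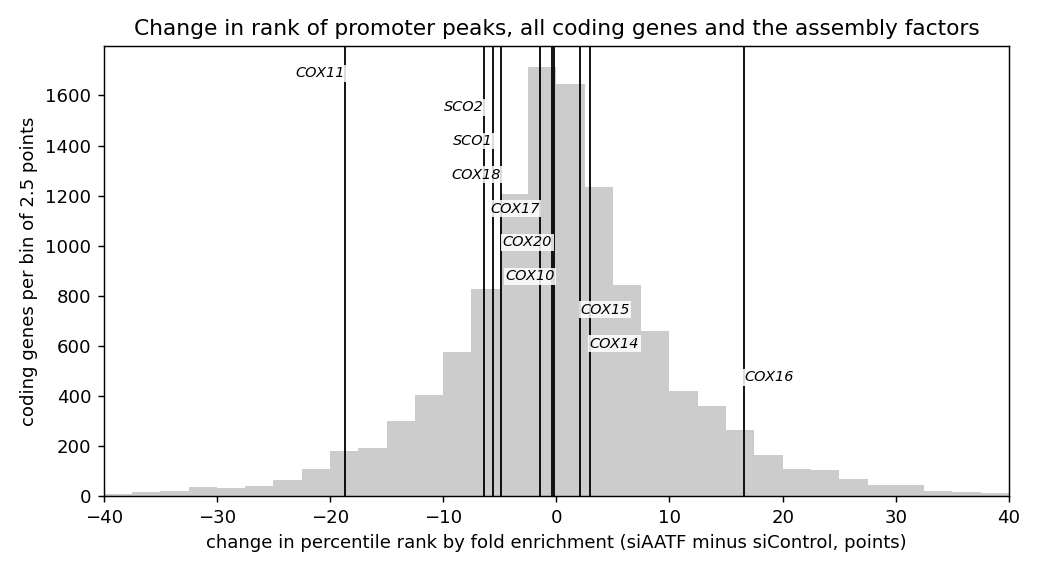
Number of coding genes (y axis) by change in percentile rank of the promoter peak by fold enrichment (x axis, siAATF minus siControl, in points), over 11774 genes with a peak in both lists, with a line for each assembly factor. The axis ends at 40 points in each direction and leaves out 32 genes; 8 of the assembly factors lie in the central mass and COX11 and COX16 lie in its flanks.

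Shared starts were counted as well. A coding start of another gene on the opposite strand lay under the siControl peak of COX15 and SCO1, 2 of the 10 genes, against 19.1% of genes with a promoter peak. In siAATF COX11 joined them through the wider peak described above.

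Other genes of the same pathway were taken from a list of 22 further assembly factors of the same enzyme, also chosen with earlier results known. All 22 were bound at the promoter in each list, with 1 peak per gene. Their median rank was 65.7 in siControl and 68.9 in siAATF, beside 75.3 and 66.5 for the 10 genes above and 63.2 and 64.4 for all coding genes with a peak. Ranks moved by more than 10 points at 4 of the 22, all lower in siAATF. They were COA3 (−13.3), COA6 (−10.5), LRPPRC (−18.0) and SMIM20 (−19.7), named after their values had been seen. Taken gene by gene, the median change was 1.47 points for the 22 and −0.925 points for the 10 genes above. A core of up to 1 mismatch lay under 7 of the siControl peaks and an exact core under 2, those of CMC2 and TIMM21, also named afterwards. The ETS word lay under 14 of the 22 peaks in siControl. An exact core with a further core, as at COX17, COX18 and SCO2, was found under 0 of the 22. With 1 list per condition, none of these differences could be set against a spread between replicates.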

How the data were processed

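NRF-1 ChIP-seq was carried out by the authors in U251 cells by ChIPmentation, with 1 peak list each for siControl and siAATF. The design text names another line, and the sample labels were followed. Per the study's methods, alignment to hg19 used Bowtie2, and broad peaks came from MACS2 as run by an ATAC-seq pipeline at its defaults. The study describes duplicates, but whether they were pooled, and against which control, is not given in the sources used here. The fold enrichment (a ratio to the local background) and the −log10 p and −log10 q are those deposited by the authors. The deposited display score was not used. Depth was unknown, so values were ranked within each list.

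Peaks were joined to promoters by an overlap of at least 1 base, with GENCODE release 44 lifted to GRCh37, the same build as hg19, using Python 3.11.15, numpy 2.4.6, pandas 2.3.3 and scipy 1.17.1. Where several peaks overlapped, the one with the highest −log10 q stood for the gene. Sequences were read from the GRCh37 primary assembly, and the search functions were tested on simulated data. A canonical coding start was annotated for 19515 genes. Coordinates are 1-based. The sequence around the SCO2 cores is not reported here. No test was made. Genes were named by a rule that took all 10 genes, coding genes whose start shares their peak, and further assembly factors with no peak or a rank change over 20 points. Others named fell under a count of 5 or fewer. COX10-DT, ENSG00000272368 and ENSG00000287601 were added as non-coding genes under a peak. Members and lists were chosen with earlier results of these data known.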

Additional observations from a re-analysis of the deposited data

How the results depend on the processing

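The 10 results were recomputed under 10 alternatives, which were a minimum −log10 q of 5, promoters of 500 bp and of 2 kb, the canonical coding start alone, ranks by −log10 q, the highest fold enrichment where several peaks overlap, a reciprocal overlap of at least 50%, the exact core alone, a core with any 2 bases in the middle, and cores no farther than 100 bp from the midpoint of the peak. Of 55 values, 54 lay within 1.5 times of a count or within the 95% order-statistic interval of a median. Taken over 10 genes, those intervals were wide, 49.1 to 95.3 for the median rank in siControl, 51.0 to 92.7 in siAATF and −6.39 to 2.96 for the change, so lying within them says little about stability. The median rank in siAATF moved from 66.5 to 49.8 under the threshold of 5, which removes weak peaks from the ranking, and that in siControl from 75.3 to 63.7. That threshold left all 10 genes with a peak in each list and 18 of the 22 further factors in each. The median change in rank turned from −0.925 to 1.09 points when ranked by −log10 q. Within 100 bp of the midpoint, a core remained in 3 genes in siControl and 2 in siAATF, where the wider SCO2 peak was centred farther upstream. No paired analysis was possible because only 1 list stood for each condition. The unknown depth limits what a lower −log10 q can show.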
